A study of Homo sapiens with 4 samples.

Results

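In the ChIP-seq peak list of the library labelled WT, 317 of the 6525 peaks on chromosomes 1 to 22 (4.86%) reached a pileup of at least 15 tags and shared no base with any peak of the library labelled HA. These 317 peaks were selected on measured values, namely the pileup (how many extended ChIP tags cover the summit) and the lack of an overlapping call in the other list, so both values are given as a description. Of the 427 peaks labelled WT that reached this pileup, the other 110 overlapped a peak labelled HA. Lack of an overlap was the usual case in this list and not particular to the 317. A further 6063 of the 6525 peaks had a lower pileup and overlapped no peak labelled HA either. The 317 peaks came from 294 distinct regions, because the peak caller splits a region with several summits, and both lists together held 19536 peaks.

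The cells were K562, an established human leukemia line that carries the BCR-ABL1 fusion, cultured untreated, and overexpressed either HA-PHF6 or HA. Cross-linked chromatin was precipitated with an HA antibody, and each of the 2 ChIP libraries was called against its own input, with 1 library per condition and no replicates. The titles name the libraries as HA and WT only without saying which of these overexpressed HA-PHF6, so the libraries are called by these labels. After duplicates were removed, the ChIP library labelled WT kept 22257947 tags and that labelled HA 16132466, which gave a genome-wide background of 1.68 and 1.05 tags at any position.

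PHF6 is a nuclear protein with PHD-like zinc fingers that is known to associate with chromatin and with the nucleolus, where ribosomal RNA is transcribed. In ChIP-seq, a place stands out when more ChIP tags pile up than the input predicts. Where a stretch of genome is present in many copies, through repeats or amplification, tags of all copies can gather at 1 mapped place in ChIP and input alike, and the local background then rises with them. The background at each summit was therefore computed as (pileup + 1) / fold enrichment - 1, in tags.

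Reference letters were at hand where a peak reached a RefSeq promoter window, which was the case for 4 of the 35116 windows, those of RPPH1's neighbour PARP2, of FTL, AHCYL2 and FAM246C. PARP2 encodes a poly(ADP-ribose) polymerase and lies head to head with RPPH1, the gene of the RNA of ribonuclease P. The 250 bases before the annotated start (GRCh38.p14, plus strand) are shown for the PARP2, AHCYL2 and FAM246C windows because these hold the bases shared with a peak, which stand in capitals. They lie at chr14:20343385-20343634, chr7:129224780-129225029 and chr22:19029274-19029523.
PARP2: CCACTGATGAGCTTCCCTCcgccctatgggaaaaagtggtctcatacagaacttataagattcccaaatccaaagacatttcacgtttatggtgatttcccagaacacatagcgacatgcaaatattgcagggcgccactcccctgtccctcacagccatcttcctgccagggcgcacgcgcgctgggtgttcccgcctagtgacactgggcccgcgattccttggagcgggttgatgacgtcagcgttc
AHCYL2: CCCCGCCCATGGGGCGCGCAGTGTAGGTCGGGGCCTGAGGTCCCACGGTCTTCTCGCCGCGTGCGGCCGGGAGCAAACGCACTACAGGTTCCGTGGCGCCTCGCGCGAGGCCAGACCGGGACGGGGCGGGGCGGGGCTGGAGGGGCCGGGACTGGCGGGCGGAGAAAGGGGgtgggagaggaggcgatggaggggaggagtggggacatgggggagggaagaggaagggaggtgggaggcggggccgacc
FAM246C: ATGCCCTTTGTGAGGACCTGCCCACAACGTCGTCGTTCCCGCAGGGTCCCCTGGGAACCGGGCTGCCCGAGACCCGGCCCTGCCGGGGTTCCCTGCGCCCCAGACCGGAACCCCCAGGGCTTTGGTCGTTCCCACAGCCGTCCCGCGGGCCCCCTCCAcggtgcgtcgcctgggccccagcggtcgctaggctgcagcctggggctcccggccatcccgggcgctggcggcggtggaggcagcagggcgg

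The PARP2 window shared 19 of these bases with the peak over RPPH1, whose summit lay 373 bp before the PARP2 start. The AHCYL2 window shared 171 bases with a peak of 17 tags over a background of 3.60 tags (fold enrichment 3.91, −log10 q 2.53), and its summit lay 244 bp before the start. AHCYL2 encodes a protein related to adenosylhomocysteinase. The FAM246C window shared 158 bases with a peak of 15 tags over 7.25 tags (fold enrichment 1.94, −log10 q 0, which is a q-value of 1). The GC share was 74.8% in the AHCYL2 window and 75.2% in the FAM246C window, against a median of 58.0% over all windows, and 54.4% in the PARP2 window. At FTL the peak began after these 250 bases, with the summit 161 bp past the start.

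The pileup of the 317 peaks ranged from 15 to 309 tags, with a median of 24. The background ranged from 1.68 to 169 tags with a median of 9.06, and the fold enrichment from 1.35 to 22.5 with a median of 2.27. Most of these peaks thus had a high pileup over a background that was high too. The background was at least 5 times the genome-wide level in 172 peaks (54.3%, 95% Wilson confidence interval 48.8% to 59.7%) and at least 10 times that level in 88 (27.8%, 23.1% to 32.9%). It was under 2 times that level in 22 peaks (6.94%, 4.63% to 10.3%). Among the 6063 peaks labelled WT with a lower pileup and no overlap, 5858 (96.6%) had a background under 2 times the genome-wide level. Among the 110 overlapping peaks of the same pileup class, 87 (79.1%, 70.6% to 85.6%) had at least 10 times that level. These shares follow in part from the choice of peaks. In 214 of the 317 peaks (67.5%), the p-value cutoff of 0.005 by itself already needed 15 tags or more over the local background, which was the case from a background of 7.06 tags on.

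**Figure D1:**
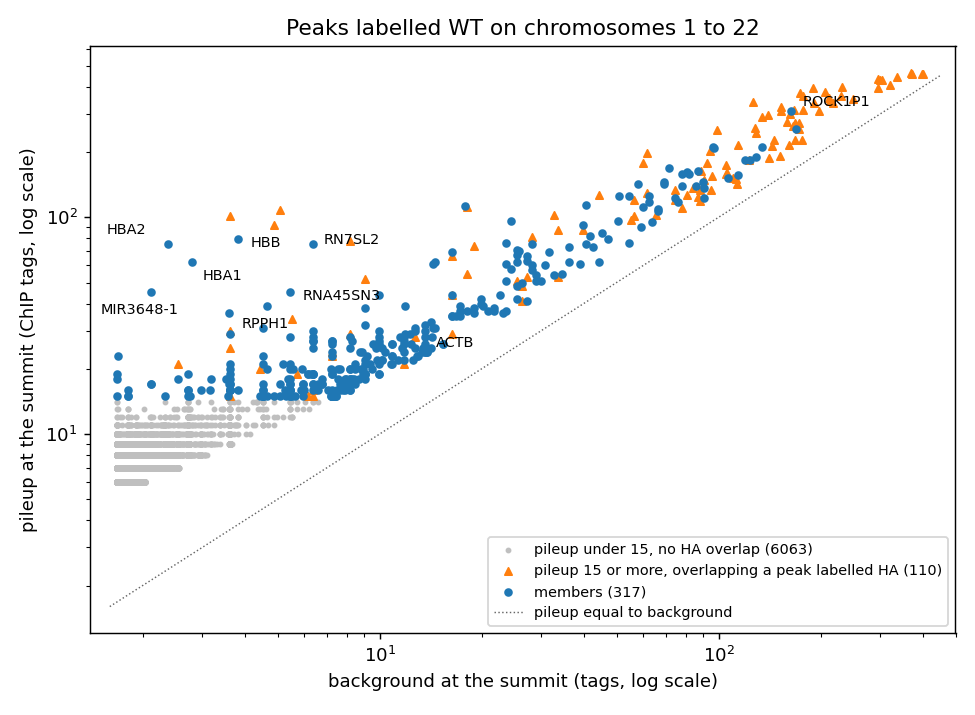
Pileup against background at the summit for peaks labelled WT on chromosomes 1 to 22, both in tags on log scales, with 1 point per peak, blue for the chosen peaks, and a dotted line where both are equal. The 317 chosen peaks run from a background of 1.68 to 169 tags along the lower limit that the p-value cutoff sets, with the globin genes, RN7SL2 and MIR3648-1 well above it.

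At the limit of the rule, the 31 peaks with 15 tags had a median background of 5.30 tags and a median fold enrichment of 2.54. The 33 peaks with 14 tags and no overlap, which were just left out, had 4.32 tags and 2.82. The q-value was under 0.05 in 128 of the 317 peaks and was 1 in 77, and 54 peaks had a −log10 q of at least 5.

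Globin genes held the 3 highest fold enrichments of the set. The peak at HBA2, an alpha-globin gene, lay at chr16:173158-173740 and had 75 tags over 2.37 tags of background (fold enrichment 22.5, −log10 q 76.7). That at HBA1, the other alpha-globin gene, lay at chr16:176981-177567 and had 62 tags over 2.80 tags (fold enrichment 16.6, −log10 q 53.9). That at HBB, the beta-globin gene of adults, lay at chr11:5225402-5225843 and had 79 tags over 3.82 tags (fold enrichment 16.6, −log10 q 67.2). All 3 genes are under 2 kb long, and the summits lay at a like distance from 1 end of each gene, 144 bp in HBA2, 142 bp in HBA1 and 144 bp in HBB. HBA1 and HBA2 are read toward higher positions and HBB toward lower ones, so that this end was the 3′ end in each. HBA1 and HBA2 are near-identical copies, and which of them gave rise to a tag is uncertain. The nearest peak labelled HA was 88839 bp from that at HBA2. At HBB it was 586 bp away, inside the same gene, with 10 tags, and it overlapped a further peak labelled WT of 101 tags (chr11:5226474-5227052, fold enrichment 22.1), which is therefore not in the set. HBB as a gene was thus called in both libraries. Of the 8 globin genes listed, these 3 held a peak of the set, against 0.127% of all 56752 annotated genes, and HBD, HBG1, HBG2, HBE1 and HBZ held none.

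Genes of abundant noncoding RNAs held further peaks. RN7SL2, a gene of the 7SL RNA of the signal recognition particle, held 75 tags over 6.34 tags at chr14:49862561-49862844 (fold enrichment 10.4, −log10 q 46.7). RPPH1 held 39 tags over 4.66 tags at chr14:20343103-20343403 (fold enrichment 7.06, −log10 q 17.6). Both peaks had their summit within a gene shorter than 0.35 kb. RN7SL3, a further 7SL gene that was named after its values were seen, held 15 tags over 2.33 tags (fold enrichment 4.8). Of the 5 genes listed as abundant noncoding RNAs (RN7SL1, RN7SL2, RN7SK, RPPH1 and RMRP), 2 held a peak of this set, against 0.127% of all annotated genes. The 3 others are not in the set because their peaks overlapped one labelled HA, with 108 tags labelled WT and 18 labelled HA at RN7SL1, 92 and 15 at RN7SK, and 34 and 16 at RMRP. The fold enrichments there were 17.9 and 5.62, 15.8 and 4.06, and 5.37 and 3.79. The set thus holds only some genes of this kind, those without a call labelled HA. RN7SL1, RN7SL2 and RN7SL3 are all genes of 7SL RNA, and which of them a tag came from is uncertain.

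Copies of the 45S ribosomal RNA gene, the precursor of the large ribosomal RNAs, held a peak in each of 2 places on chromosome 21. The peak at chr21:8208350-8208800 had 45 tags over 2.12 tags (fold enrichment 14.7, −log10 q 37.6), and its summit lay in MIR3648-1, a microRNA gene of 0.18 kb inside RNA45SN2. The peak at chr21:8396589-8396884, in RNA45SN3, had 45 tags over 5.44 tags (fold enrichment 7.15, −log10 q 20.5). The copies are near-identical, and which copy a tag came from is uncertain. A further 3 peaks labelled WT of at least 15 tags lay in 2 genes annotated as ribosomal RNA. Their median fold enrichment was 5.91 and their median −log10 q 42.3. These overlapped a peak labelled HA and are therefore not in the set, so ribosomal RNA genes were called in both libraries.

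Genes of abundant messenger RNAs held weaker peaks. FTL, the ferritin light chain gene, held 30 tags over 6.36 tags (fold enrichment 4.21, −log10 q 6.60), and its pseudogene FTLP3 on chromosome 20 held 25 tags over 6.34 tags (fold enrichment 3.54, −log10 q 3.55). The actin genes ACTB and ACTG1 held 30 tags over 13.6 tags and 17 tags over 5.94 tags, with fold enrichments of 2.12 and 2.60 and a −log10 q of 0.431 and 0.313. HNRNPA1, which encodes an abundant RNA-binding protein, held 20 tags over 5.55 tags (fold enrichment 3.20). MALAT1, a long nuclear RNA, held 19 tags over 6.15 tags (−log10 q 0.798) where its antisense transcript TALAM1 is also annotated. Tags of the 2 strands cannot be told apart. ACTB and ACTG1 thus rested on q-values far above 0.05, unlike FTL and HNRNPA1 with a −log10 q of 6.60 and 1.75. EEF1A1 and EEF2, genes of translation elongation factors, held peaks of 12 and 11 tags and were below the pileup limit. Of the 8 abundant messenger RNA genes listed (ACTB, ACTG1, EEF1A1, EEF2, GAPDH, FTL, FTH1 and TPT1), 3 held a peak of this set, against 0.127% of all annotated genes.

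None of the 84 cytosolic ribosomal protein genes, the 73 histone genes, the 41 spliceosomal small nuclear RNA genes, the 550 small nucleolar RNA genes and the 439 transfer RNA genes in the table held a summit. Over all annotated genes the share was 0.127%, so these zeros are near the background and are not a result about the families. A peak of 18 tags over 6.78 tags in WDR74 (chr11:62841239-62841708, −log10 q 0.220) reached RNU2-2, a U2 small nuclear RNA gene, without its summit. Of the peaks outside genes, several lay beside small or multicopy genes, which were named after their values were seen. A peak of 15 tags over 5.64 tags (−log10 q 0.0778) lay 178 bp from the histone gene H4C5. One of 16 tags over 5.44 tags (−log10 q 0.278) lay 495 bp from the transfer RNA gene TRE-CTC1-3. The q-values of these peaks and of that in WDR74 were far above 0.05. On chromosome 1, peaks of 71 tags over 25.4 tags (−log10 q 8.34) and 17 tags over 2.12 tags (−log10 q 5.78) lay within 1 kb of the 5S ribosomal RNA genes RNA5S6 and RNA5S11. The lists of genes with abundant products were put together with earlier results of these data known.

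By annotation, 103 of the 317 summits (32.5%, 27.6% to 37.8%) lay in a gene and 214 in none. Among the peaks with a lower pileup and no overlap the share in a gene was 56.3% (55.0% to 57.5%), and among the 110 overlapping peaks it was 17.3% (11.3% to 25.4%). The 346 peaks labelled HA that reached the same pileup and overlapped no peak labelled WT had a share of 74.6% (69.7% to 78.9%). Of these 346 peaks, 192 were at transfer RNA genes, which make up most of that share. The intervals cover counting error only and treat peaks as independent, which peaks of 1 amplified or repeated stretch are not, and no test was made between these sets. The 103 summits fell in 63 genes, taking the smallest gene at each summit. Protein-coding genes took 58 summits (18.3%, 14.4% to 22.9%) in 29 genes, long noncoding RNA genes 14, pseudogenes of either kind 15 and immunoglobulin loci 10. The remaining 6 were in 1 microRNA, 1 ribosomal RNA, 1 ribonuclease P RNA, 1 antisense RNA and 2 7SL genes. The median fold enrichment was 2.36 at protein-coding genes and 2.17 at long noncoding RNA genes, against 7.58 at the 7SL genes.

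Within genes, the peaks of the highest fold enrichment were mostly at short genes. This takes the smallest gene at each summit, as with MIR3648-1 inside RNA45SN2. In genes of at most 10 kb there were 28 peaks in 26 genes, with a median background of 6.35 tags, a median fold enrichment of 2.70 and a median −log10 q of 2.97. In longer genes there were 75 peaks in 37 genes, with 8.82 tags, 2.14 and 0.220. Of the 22 peaks with a fold enrichment of at least 5, 7 were in short genes (HBA2, HBB, HBA1, RN7SL2, MIR3648-1, RPPH1 and FAM90A23), 1 was in a longer gene (RNA45SN3) and the others were in no gene. Short genes made up 27.2% (19.5% to 36.5%) of the peaks within genes, against 57.9% (36.3% to 76.9%, 11 of 19) for the overlapping peaks labelled WT, 6.30% (5.53% to 7.17%) for the peaks with a lower pileup and 81.4% (76.2% to 85.7%) for the peaks labelled HA of the same pileup. Most of the last share comes from the 192 peaks labelled HA at transfer RNA genes. Counted by gene, 11 of 5325 protein-coding genes of at most 10 kb held a peak (0.207%, 0.115% to 0.370%), as did 20 of 13797 longer ones (0.145%, 0.0939% to 0.224%), and these intervals overlap. For the peaks with a lower pileup the shares were 1.30% and 11.5%. Per megabase of gene, protein-coding genes up to 1 kb held 5.60 peaks, those of 1 to 10 kb 0.404, those of 10 to 50 kb 0.0459, those of 50 to 200 kb 0.0548 and those over 200 kb 0.0213. The value for the shortest genes rests on 2 peaks, those of HBA1 and HBA2. The 11 short protein-coding genes were HBA1, HBA2, HBB, FTL, ACTB, ACTG1, HNRNPA1, WDR74, LILRA6, FAM90A23 and LOC124905153.

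**Figure D2:**
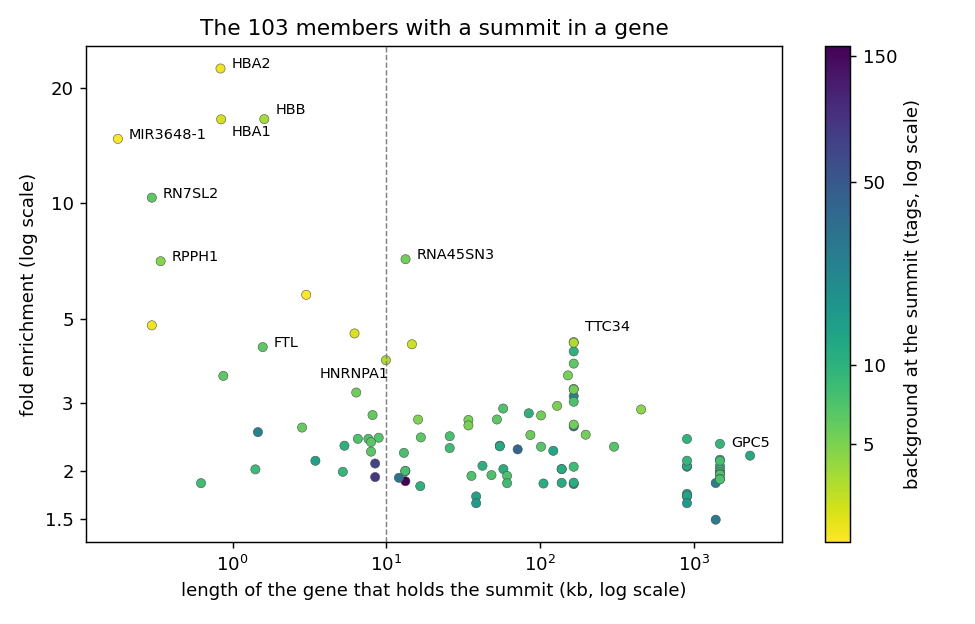
Fold enrichment against the length of the gene that holds the summit, both on log scales, for the 103 peaks in a gene, with the background in tags as colour and a dashed line at 10 kb. Fold enrichments of at least 5 stand left of the line except for RNA45SN3, and peaks of the longest genes, such as GPC5, lie near 2.

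Along the gene, 15 of the 28 summits in short genes lay within 1 kb of an end of the gene, which a short gene leaves little room to avoid. Of the 75 summits in longer genes 3 did (4%), and their median distance to the nearer end was 18822 bp. Strand was given for 55 of the 103 summits. In the longer genes with a strand, 12 of 20 genes had their median summit in the last of 3 equal stretches from the start, 4 in the first and 4 in the middle. Over these genes the median position was 0.72 of the length. In the 7 short genes with a strand the numbers were 1 in the last stretch, 4 in the first and 2 in the middle. With so few genes no preference for a place can be read from these positions.

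Single long genes took many peaks. TTC34 on chromosome 1, a tetratricopeptide repeat gene, held 13 peaks in 8 regions, the most of any gene, within a stretch of 0.106 Mb. Their pileup ranged from 16 to 76 tags, their background from 3.62 to 28.1 tags and their fold enrichment from 1.85 to 4.34. The strongest lay at chr1:2652165-2652504 (−log10 q 12.2), and 9 of the 13 had a q-value under 0.05. The library labelled HA had 0 peaks in this stretch. For the 13 chosen peaks, the rule itself leaves out any that overlap a peak labelled HA. How many peaks labelled HA a stretch of this length would hold on average was not computed. The 0 is therefore not read as particular to TTC34. GPC5 on chromosome 13, a glypican gene, held 10 peaks with pileups from 15 to 23 tags and fold enrichments from 1.90 to 2.35, and none had a −log10 q above 0.436. The immunoglobulin lambda locus held 8 and BCR, the partner of ABL1 in the fusion of K562 cells, held 3, with fold enrichments from 1.65 to 2.42 and from 1.86 to 2.02. Further genes with 2 peaks were GNAZ, HIRA, HIC2, TOP3B, DGCR5 and LOC124905153 on chromosome 22, FIBCD1 on chromosome 9, CDC27P10 on chromosome 21, ROCK1P1 on chromosome 18 and the immunoglobulin kappa locus on chromosome 2. Their −log10 q was at most 0.789 except at CDC27P10 (10.1) and ROCK1P1 (18.0).

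By chromosome, chromosome 22 held 54 of the 317 peaks, chromosome 1 held 44, chromosome 13 held 36, chromosome 21 held 29 and chromosome 20 held 23. Together these were 58.7% of the peaks. On chromosome 13, 36 of all 62 peaks labelled WT (58.1%) belonged to the set, on chromosome 22 it was 54 of 117 (46.2%) and on chromosome 3 it was 1 of 177 (0.565%). The share in a gene differed as well, from 35 of 54 on chromosome 22 and 14 of 36 on chromosome 13 to 0 of 14 on each of chromosomes 4 and 5 and 0 of 15 on chromosome 10.

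The peaks were gathered in a few stretches. When neighbours within 1 Mb were joined, 237 of the 317 peaks fell into 16 blocks of 5 or more, and 43 peaks stood alone. The largest block, on chromosome 22 from 18990264 to 23289176, held 40 peaks, 32 of them in genes, from DGCR5 to BCR. Their pileup ranged from 15 to 31 tags, and their median background of 8.61 tags was 5.12 times the genome-wide level. The library labelled HA had 35 peaks in this block, 23 of them with 15 tags or more, at a median background 5.79 times its own genome-wide level, and 0 of the 35 overlapped a peak labelled WT. Both libraries thus had many calls of 15 tags or more in the block. The lack of overlap is set by the rule for the 40 chosen peaks among the 48 labelled WT there, so it is not a result. The second block, on chromosome 13 from 89889638 to 92590518, held 31 peaks at a median of 5.25 times the genome-wide level, and 10 peaks labelled HA at 4.92 times. A smaller block on chromosome 9, from 130921321 to 130991510, held 4 peaks at 8.82 times the genome-wide level. In these 3 blocks 1 peak each had a q-value under 0.05. K562 cells are known to carry extra copies of the BCR-ABL1 fusion. The part that copy number has in these calls was not tested.

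In 4 further blocks of 14 or more peaks, all summits lay in no gene. The 17 peaks on chromosome 1 from 143200088 to 143266861 had pileups from 38 to 210 tags over a median background of 47.1 tags, and no gene was annotated there. This stretch held 30 peaks labelled WT in all, and 13 others of at least 15 tags overlapped a peak labelled HA. Blocks of 14 peaks each lay on chromosome 10 (40198819 to 42071083), chromosome 2 (92196944 to 93794201) and chromosome 4 (49091888 to 49642867), with 0, 0 and 12 annotated genes. These stretches are in or beside centromeres, whose satellite repeats are present in very many copies. Of the 214 peaks in no gene, the median distance to the nearest gene was 68016 bp, and 121 of the 317 peaks had no gene within 50 kb.

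Within the centromeric stretches the background varied widely. On chromosome 4 its median was 25.1 times the genome-wide level, and 3 of the 14 peaks had a q-value under 0.05. On chromosome 2 the median was 2.97 times, and 12 of the 14 had a q-value under 0.05. Some peaks outside the blocks just named rose from a background at or near the genome-wide level. One on chromosome 5 from 47450705 to 47450986 had 23 tags over 1.7 tags (fold enrichment 8.90, −log10 q 13.6). Another on chromosome 1 from 124475570 to 124475839 had 19 tags over 1.68 tags (fold enrichment 7.46, −log10 q 9.35). In both, the nearest annotated gene was more than 1 Mb away. In all, a background within 1% of the genome-wide level was found at 4 of the 317 peaks, and none of these lay in a gene.

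Of the 15 strongest peaks by −log10 q, 7 were in no gene. The strongest of them lay near the end of chromosome 10 from 133688265 to 133688593, with 113 tags over 17.8 tags (fold enrichment 6.06, −log10 q 45.2), and its nearest gene was the pseudogene DUX4L20 at 3223 bp. The others lay on chromosome 1 (143227715 to 143227969 with 96 tags and 143215040 to 143215283 with 210 tags), chromosome 10 (40198819 to 40199130 with 36 tags), chromosome 17 (23016237 to 23016548 with 209 tags), chromosome 21 (8230599 to 8230882 with 169 tags) and chromosome 2 (32916245 to 32916491 with 69 tags). ROCK1P1, a pseudogene of the kinase gene ROCK1, held the highest pileup of the set, 309 tags over a background of 164 tags, so that its −log10 q of 18.0 came with a fold enrichment of 1.88. The highest background, 169 tags, was on chromosome 16 from 46386892 to 46387129, where 256 tags gave a fold enrichment of 1.51. The next after ROCK1P1 were on chromosome 21 (8234119 to 8234695, 134 tags), chromosome 16 (34594805 to 34595171, 129 tags) and chromosome 5 (49660868 to 49661104, 124 tags). These 5 backgrounds were 73.9 to 101 times the genome-wide level.

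The lack of a call labelled HA has to be read against depth. With fewer tags and a shorter extension, the library labelled HA gave 0.623 times the tags at a position, so that 9.34 to 192 tags (median 14.9) would be expected at the same enrichment. Over the background scaled in the same way, the cutoff of 0.005 needs a median of 13 tags. In 247 of the 317 peaks the expected tags reached the number needed, and in 70 they did not. In some of the 247 the expected tags barely passed the number needed. Tag counts vary, so such peaks need not have been called. The list labelled HA was the longer one, with 12662 peaks against 6874. Its lowest pileup was 4 tags, against 6 in the list labelled WT, so the lists reach down to different numbers of tags. Their lengths thus give no answer on depth at the 317 peaks. The part that depth has in the missing calls was not tested. The scaling uses the background of the library labelled WT and not the input labelled HA. In 22 peaks the expected tags were at least 2 times the number needed. At HBA2, 46.7 tags would be expected where 5 are needed, at HBB 49.2 where 7 are needed and at RN7SL2 46.7 where 10 are needed. The expected reached the needed number in 24 of the 28 peaks in short genes and in 49 of the 75 in longer genes. The pileups were chosen for being high, which carries over to the expected values. The nearest peak labelled HA lay from 177 to 2886804 bp away (median 31502 bp), and 37 of the 317 peaks had one within 1 kb, HBB among them. With 1 library per condition, a difference between the conditions cannot be told apart from one between 2 single libraries.

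**Figure D3:**
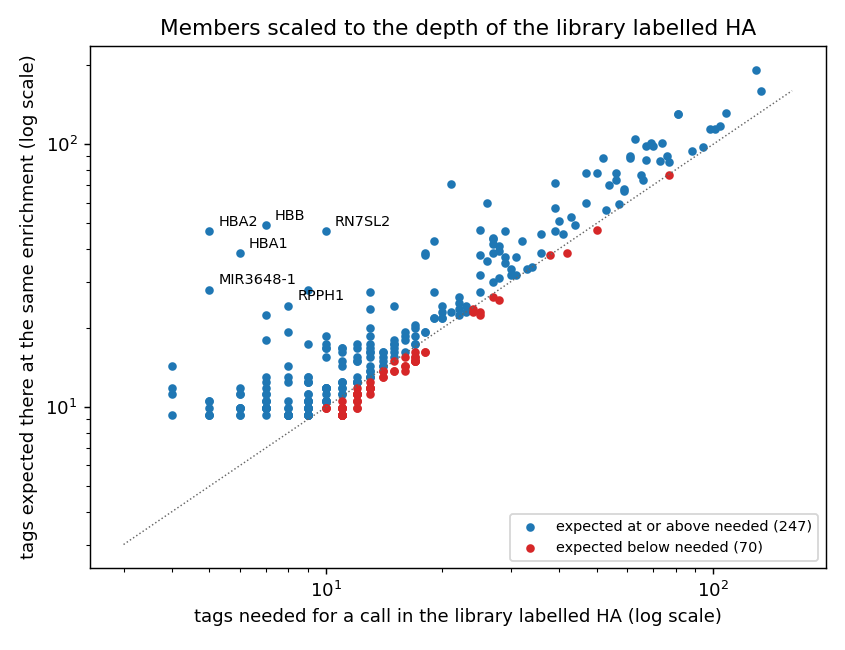
Tags expected in the library labelled HA at the same enrichment against the tags its cutoff needs over the scaled background, on log scales, with 1 point per peak and a dotted line where both are equal. The 70 red points below the line are peaks whose expected tags stay under the number needed, and the globin genes, RN7SL2 and MIR3648-1 stand far above it.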

How the data were processed

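K562 chromatin was precipitated with an HA antibody, giving 2 ChIP libraries, each sequenced with an input. The submitters' processing notes name BWA 0.7.12 and MACS2 2.1.0, and per the file headers the authors ran MACS 2.1.0.20150420 for each ChIP library and its input, on alignments whose names mark unique reads without duplicates, with a p-value cutoff of 0.005 and an extension of 234 bp (labelled WT) or 201 bp (labelled HA). The deposited signal is the pileup at the summit in tags, and the deposited fold enrichment is the ratio of the pileup to the local background of the input, each raised by 1. Deposited p-values and q-values are given as −log10. A header line announces no q-value, yet the column is filled and was used as it stands. A Poisson p-value from pileup and background came within 0.05 of the deposited −log10 p for all 317 peaks.

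The genome build is not given in the sources used here. The contig names are those of GRCh38, and genes, strands and promoter sequences were taken from RefSeq tables of GRCh38.p14. A peak was assigned to the smallest gene that holds its summit. Strand was used where the promoter or microRNA table gives it. Neither gives one for HBA1, HBA2 and HBB, whose direction was taken from general knowledge. Exons were not analysed here. Genes of at most 10 kb were called short. The rule for named genes took the 15 peaks with the highest −log10 q, genes with 2 or more peaks, the 5 highest backgrounds and the gene lists, and any other gene was picked with its values in view. The members and lists were chosen with earlier results of these data known. Shares have 95% Wilson intervals, which cover counting error only, and no test was made, since each condition has 1 library. The expected tags in the other library were scaled by tags and extension. The steps were tested on simulated data. The software was scipy 1.17.1, numpy 2.4.6 and pandas 2.3.3 under Python 3.11.15, with plots by matplotlib 3.10.9. Alternatives were other limits on pileup, q and fold enrichment, other definitions of overlap, gene, short gene and gene end, and chromosome X or fewer chromosomes.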

Additional observations from a re-analysis of the deposited data

How the results depend on the processing

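No paired analysis was possible because no condition had more than 1 ChIP library. The number of peaks, 317, became 1041 with a pileup limit of 10, 202 with 20, 54 with a −log10 q of at least 5 and 22 with a fold enrichment of at least 5. The median background of 9.06 tags was 2.76, 14.2, 15.5 and 2.46 tags in this order. With a limit of 10 the share in a gene rose from 32.5% to 49.0%, that at protein-coding genes from 18.3% to 33.4%, and the share of short and of long genes that hold a peak from 0.207% to 0.601% and from 0.145% to 2.04%. With a limit of 20 these gene shares were 0.113% and 0.0725%, with the limit on q 0.0939% and 0.00725%, and with that on fold enrichment 0.0751% and 0% (0 of 13797, where a limit of 3 counts allows a share of up to 0.0217%). The limit of 10 thus turned the order of short and long genes. The share of peaks in short genes, 8.83%, was 20.4% with the limit on q, 31.8% with that on fold enrichment and 4.73% where short means at most 5 kb, and the share near a gene end, 17.5%, was 55.6% and 87.5% with the limits on q and fold enrichment. Without chromosomes 9, 13 and 22, a setting chosen after seeing the data, 217 peaks remained, with 23.5% in a gene, 12.9% at protein-coding genes, a median background of 10.9 tags and 0.0507% of long genes. The other 51 of 78 values, among them all those with a peak of the other list within 1 kb counted as shared, with peaks merged within 500 bp or with chromosome X added, stayed within the 95% interval of the reported value or, for counts, within 1.5 times of it. With 1 library per condition no value has a replicate error.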
